A study of Homo sapiens with 4 samples.

Results

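The genes described here are 10 genes of the integrated stress response, ATF4, DDIT3, CHAC1, DDIT4, TRIB3, ASNS, SESN2, SLC7A11, PSAT1 and PCK2. They were found by symbol among the 69222 gene identifiers of the deposited count files, and all 10 were present. They were chosen by their CPM (read counts scaled to library size) in these same 4 libraries, with the knockdown libraries viewed apart, so their levels and fold changes are given as a description and no test of them is used as support. The RNA came from HEK293T, an established line from human embryonic kidney. Cells of the first group (shRPRD1B, 2 libraries) received, by lentivirus, a short hairpin RNA against RPRD1B, a protein that binds the phosphorylated tail of RNA polymerase II. Cells of the other group (shCtrl, 2 libraries) received a control hairpin by the same route. All 4 libraries were made from poly(A) RNA of the same line. The hairpin sequences and the time after transduction are not stated in the labels, and nothing says that the replicates were separate cultures, so the spread between them may be technical.

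Total counts were 65572391 and 54722140 in shRPRD1B 1 and 2, and 47732913 and 48494258 in shCtrl 1 and 2. RPRD1B itself stood at 27.2 and 35.5 CPM in shRPRD1B 1 and 2, against 50.4 and 50.1 CPM in shCtrl 1 and 2. Those levels are 54.3% and 70.6% of the shCtrl mean, and the log2 fold change was -0.68 ± 0.16 (SE, adjusted p = 0.448 with edgeR). The share of counts in 37 mitochondrially encoded genes was 2.54% and 3.61% in shRPRD1B 1 and 2, and 2.71% and 2.78% in shCtrl 1 and 2. All 8 markers fixed for HEK293T, among them VIM, NEFL and LIN28B, exceeded 1 CPM on average. Of markers of other cells, 4 of 9 for fibroblasts, 1 of 10 for leukocytes, 0 of 5 for hepatocytes and 0 of 5 for endothelium did. The fibroblast markers together made up 24.1 to 26.6 CPM in shRPRD1B libraries and 35.2 to 39.5 CPM in shCtrl libraries, and the part of this in the results was not tested. The shRPRD1B libraries differed more from each other than the shCtrl libraries did. Over 11541 genes with a mean of at least 5 CPM, the SD of the within-pair log2 ratio was 0.46 in shRPRD1B and 0.25 in shCtrl.

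The integrated stress response begins when a kinase phosphorylates the translation initiation factor eIF2, which lowers general protein synthesis. Translation of the mRNA for the transcription factor ATF4 then increases, and ATF4 switches on genes for amino acid uptake and synthesis and for redox balance. When the stress lasts, it also switches on DDIT3 (CHOP), a transcription factor tied to cell death. ATF4 is controlled largely at translation and protein stability, so its mRNA level is not a measure of its activity.

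The 10 genes covered a wide range of mRNA levels. Scaled by the length of 1 transcript per gene, ATF4 was the most abundant of them in every library, with 404 and 288 CPM per kb in shRPRD1B 1 and 2, and 410 and 401 in shCtrl 1 and 2. DDIT4 came next in shRPRD1B 1, at 182 CPM per kb against 121 for PSAT1. PSAT1 came next in shRPRD1B 2, at 91.8 CPM per kb against 31.2 for DDIT4, and in shCtrl 1 and 2, at 124 and 122 against 78.6 and 76.0. The order of the upper genes therefore differed between the libraries of the knockdown. At the low end, SESN2 had at most 7 counts in a library, too few to be tested, while 9 of the 10 genes passed the filter on low counts. A low count in these files need not mean a low transcript level: VARS1, the valyl-tRNA synthetase gene that every cell uses, has 25 counts in shCtrl 2.

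**Figure D1:**
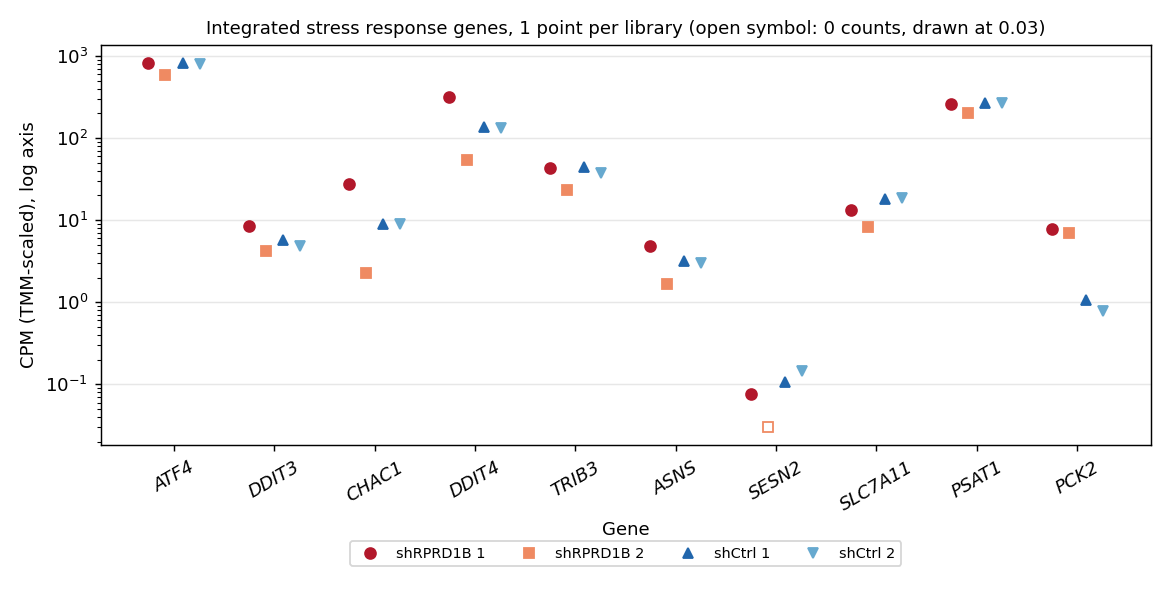
CPM on a log axis of the 10 integrated stress response genes, with 1 point for each library (shRPRD1B 1 and 2, then shCtrl 1 and 2). CHAC1 and DDIT4 have shRPRD1B 1 above and shRPRD1B 2 below a tight shCtrl pair, and PCK2 has both shRPRD1B libraries above the shCtrl pair. The open symbol marks the 0 counts of SESN2 in shRPRD1B 2.

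The transcription factors of the response come first. ATF4 (ENSG00000128272.18, chromosome 22, 39520559 to 39522686, plus strand, GRCh38) had 816 and 581 CPM in shRPRD1B 1 and 2, against 827 and 809 CPM in shCtrl 1 and 2. Its level in shRPRD1B 1 lay between the controls, and its level in shRPRD1B 2 lay below them at 0.711 times their mean. The group means were 699 ± 166 CPM in shRPRD1B and 818 ± 12.5 CPM in shCtrl (SD, n = 2 each). In bulk RNA, fewer cells with a transcript and less of it per cell cannot be told apart. The fitted log2 fold change was -0.23 ± 0.18 (SE), with a 95% interval from -0.67 to 0.22. The 4 annotated ATF4 pseudogenes held 0.236% and 0.157% as many counts as ATF4 in shRPRD1B 1 and 2, and 0.194% and 0.198% in shCtrl 1 and 2, so few assigned reads lay in these copies.

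DDIT3 (ENSG00000175197.13, chromosome 12, 57516588 to 57520517, minus strand) had low counts. It stood at 8.56 and 4.18 CPM in shRPRD1B 1 and 2, against 5.70 and 4.91 CPM in shCtrl 1 and 2. It was highest in shRPRD1B 1, at 561 counts, and lowest in shRPRD1B 2, at 229 counts. The controls lay between them. The group means were 6.37 ± 3.10 CPM in shRPRD1B and 5.31 ± 0.558 CPM in shCtrl (SD, n = 2 each), and the log2 fold change was 0.28 ± 0.36 (SE, 95% interval -0.62 to 1.17). The DDIT3 locus overlaps MARS1, the methionyl-tRNA synthetase gene, and no source states the strand setting of the counting, so reads of the overlap cannot be told apart. MARS1 had 281 and 257 CPM in shRPRD1B 1 and 2, and 278 and 275 CPM in shCtrl 1 and 2.

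CHAC1 and DDIT4 split the knockdown libraries most widely. CHAC1 (ENSG00000128965.13, chromosome 15, 40953471 to 40956512, plus strand) encodes an enzyme that breaks down glutathione and is induced by ATF4. It had 27.7 and 2.28 CPM in shRPRD1B 1 and 2, against 8.93 and 8.96 CPM in shCtrl 1 and 2. In counts, these were 1813 and 125 in shRPRD1B 1 and 2, and 423 and 436 in shCtrl 1 and 2. The shRPRD1B 1 level was 3.09 times the shCtrl mean, the shRPRD1B 2 level was 0.255 times it, and the knockdown libraries lay 12.1-fold apart. The shCtrl libraries differed by a factor of 1.003. The fitted log2 fold change of 0.76 ± 1.10 (SE, 95% interval -2.23 to 3.75) averages over opposite displacements.

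DDIT4 (REDD1; ENSG00000168209.6, chromosome 10, 72273924 to 72276036, plus strand), an inhibitor of the growth kinase complex mTORC1, had the same arrangement at a higher level. It had 318 and 54.5 CPM in shRPRD1B 1 and 2, against 137 and 133 CPM in shCtrl 1 and 2. The shRPRD1B 1 level was 2.35 times the shCtrl mean and the shRPRD1B 2 level 0.404 times it, so the knockdown libraries were 5.83-fold apart around a control pair that differed by a factor of 0.967. The log2 fold change was 0.46 ± 0.83 (SE, 95% interval -1.81 to 2.74).

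TRIB3 (ENSG00000101255.12, chromosome 20, 380760 to 397559, plus strand), a pseudokinase that restrains ATF4 and DDIT3, had its lowest value in shRPRD1B 2 and a value between the controls in shRPRD1B 1. It had 43.1 and 23.1 CPM in shRPRD1B 1 and 2, against 43.9 and 38.0 CPM in shCtrl 1 and 2. The log2 fold change was -0.30 ± 0.29 (SE, 95% interval -1.03 to 0.42). SESN2 (ENSG00000130766.5, chromosome 1, 28259518 to 28282491, plus strand), a leucine-binding inhibitor of mTORC1, had 5 and 0 counts in shRPRD1B 1 and 2, against 5 and 7 counts in shCtrl 1 and 2. A count of 0 in shRPRD1B 2 allows up to 3 counts, or 0.0547 CPM, which covers counting error only. No fold change was read from so few counts.

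ASNS, an amino acid gene, and CHAC1 are the members whose promoter window holds the letters TGATGNAA on either strand, the form in which ATF4 and a C/EBP partner bind DNA at many target genes. The windows ran from 250 bases before to 50 bases after each annotated start (RefSeq, GRCh38.p14). They were at hand for 9 members, SLC7A11 being the other. The match is shown in capitals within 30 bases, 5′ to 3′ on the strand of the gene, for both members.
CHAC1 (chr15:40953251-40953280, plus strand): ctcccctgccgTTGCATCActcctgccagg
ASNS (chr7:97872458-97872487, minus strand): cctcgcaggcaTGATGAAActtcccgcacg
In CHAC1 the capitals begin 209 bases before the start and read TGATGCAA on the opposite strand, and in ASNS they begin 68 bases before an internal start at 97872408, not the outermost 5′ end of the gene. RefSeq gives ASNS 2 windows, and the match is in 1 of them. Of 35116 such windows over all genes, some with more than 1, 3.62% hold the letters, and their presence is a description only.

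ASNS (ENSG00000070669.17, chromosome 7, 97851677 to 97928441, minus strand) encodes asparagine synthetase. It had 4.88 and 1.68 CPM in shRPRD1B 1 and 2, against 3.15 and 3.04 CPM in shCtrl 1 and 2. As with CHAC1 and DDIT4, shRPRD1B 1 was the highest library, at 320 counts, and shRPRD1B 2 the lowest, at 92 counts. The controls had 149 and 148 counts. The log2 fold change was 0.11 ± 0.49 (SE, 95% interval -1.10 to 1.32). The ASNS locus overlaps the readthrough gene CZ1P-ASNS, and the ASNS pseudogenes held 23 and 2 counts in shRPRD1B 1 and 2, and 23 and 24 counts in shCtrl 1 and 2, so reads may have been divided between copies.

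SLC7A11 and PSAT1 had both knockdown libraries below both control libraries. SLC7A11 (ENSG00000151012.13, chromosome 4, 138164097 to 138242349, minus strand) encodes the transporter that imports cystine for glutathione synthesis. It had 13.4 and 8.21 CPM in shRPRD1B 1 and 2, against 17.98 and 18.6 CPM in shCtrl 1 and 2. The group means were 10.8 ± 3.69 CPM in shRPRD1B and 18.3 ± 0.403 CPM in shCtrl (SD, n = 2 each), with a log2 fold change of -0.75 ± 0.25 (SE, 95% interval -1.37 to -0.13). PSAT1 (ENSG00000135069.14, chromosome 9, 78297125 to 78330093, plus strand), an aminotransferase of serine synthesis, had 264 and 201 CPM in shRPRD1B 1 and 2, against 270 and 266 CPM in shCtrl 1 and 2. Its shRPRD1B 1 value was 0.985 times the shCtrl mean, and the log2 fold change was -0.21 ± 0.16 (SE, 95% interval -0.59 to 0.18).

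PCK2 (ENSG00000100889.12, chromosome 14, 24094171 to 24104125, plus strand), the mitochondrial phosphoenolpyruvate carboxykinase, was the member with the largest fitted fold change and the one member past the threshold. It had 7.81 and 7.04 CPM in shRPRD1B 1 and 2 (512 and 386 counts), against 1.06 and 0.781 CPM in shCtrl 1 and 2 (50 and 38 counts). Both knockdown libraries were alike and both lay above the controls. The log2 fold change was 3.02 ± 0.26 (SE, 95% interval 2.38 to 3.66). The quasi-likelihood test of edgeR, adjusted over all tested genes, gave an adjusted p of 0.0472. PCK2 was chosen with these values known, so this p-value and those that follow are a description and are not used as support. With limma voom the adjusted p was 0.102, with upper-quartile factors 0.0589, with edgeR's older quasi-likelihood fit 0.0712 and with only genes of at least 5 CPM in 2 libraries 0.0858, so the call was lost in those fits while the fold change was kept. PCK2 lies in a stretch of uneven counts: of 14 tested genes within 200 kb, 6 had an over 8-fold gap within the shRPRD1B or the shCtrl pair, against 1.64% of all tested genes. For the other tested members with neighbours in reach, that number was 0, except for DDIT3 with 1 of 15. PCK2 overlaps NRL, which had 2 and 0 counts in shRPRD1B 1 and 2, and 22 and 0 counts in shCtrl 1 and 2. The part of these uneven counts in the PCK2 difference was not tested.

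Between knockdown and control, the fitted fold changes of the members had both signs, with 5 of 9 positive. By edgeR, 1 of the 9 was called in either direction, against 0.0689% of all tested genes. That member was higher, against 0.0295% of all tested genes, and 0 were called lower, against 0.0394%. At an unadjusted p under 0.05, 1 was higher, against 3.55% of all tested genes, and 1 lower, against 3.94%. DESeq2 likewise called 1 higher, against 0.620% of all tested genes, and 0 lower, against 0.561%. The shRPRD1B pair lay wholly above the shCtrl pair for 1 member, against 20.3% of tested genes, and wholly below it for 2 members, against 20.6%. Since these values were known when the members were chosen, nothing is read from these counts. The median log2 fold change of the 9 was 0.11, against 0.00 over all tested genes.

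The order within the knockdown pair was the same for every tested member. All 9 tested members were lower in shRPRD1B 2 than in shRPRD1B 1, against 50.4% of all tested genes. For 8 of the 9, shRPRD1B 2 was the lowest of the 4 libraries, against 35.0% of tested genes, with PCK2 as the exception. shRPRD1B 1 was the highest of the 4 for 5 members, DDIT3, CHAC1, DDIT4, ASNS and PCK2, against 25.8% of tested genes. The shRPRD1B libraries were at least 2-fold apart for 4 members, DDIT3, CHAC1, DDIT4 and ASNS, against 9.99% of tested genes, and the shCtrl libraries were so for 0 members, against 5.71%. In each of the 4, shRPRD1B 2 was the lower library, as for 6.32% of tested genes. Among genes with a mean of at least 5 CPM, which include 7 members, the shRPRD1B gap was 2-fold for 3 members (2.77% of such genes) and the shCtrl gap for 0 (0.555%), and shRPRD1B 2 was lowest for all 7 (35.8%). The members were chosen with this pattern in view, so nothing is read from these counts. With 2 libraries, an effect of the hairpin and one of a single culture or preparation cannot be told apart.

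**Figure D2:**
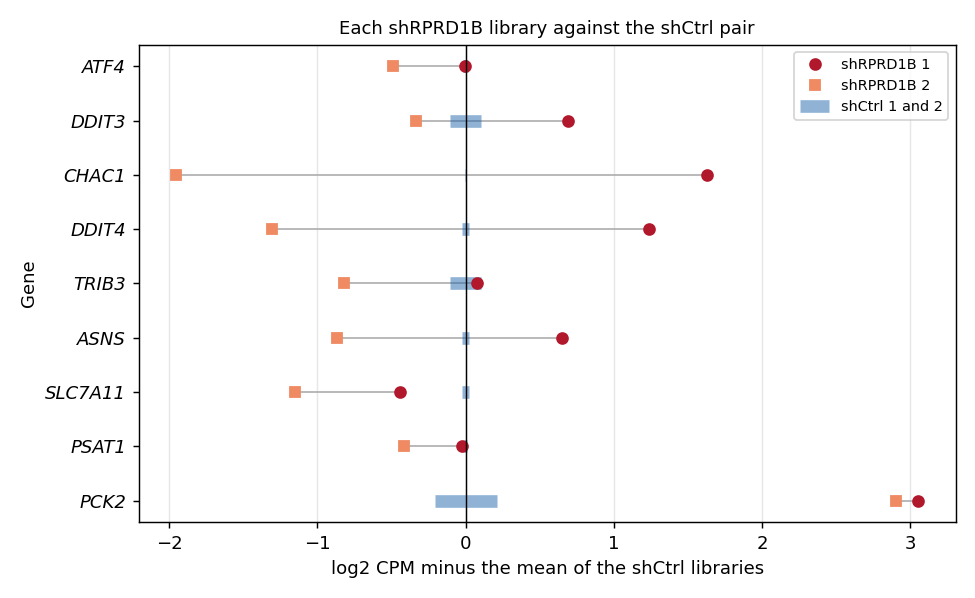
Log2 CPM of each shRPRD1B library minus the shCtrl mean, for the 9 tested members. Circles are shRPRD1B 1, squares are shRPRD1B 2 and the blue bars span the shCtrl libraries. All squares lie left of their circles, and CHAC1 spans from -1.95 to 1.63.

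On the log2 scale, the median difference of the 9 members from the shCtrl mean was 0.65 in shRPRD1B 1 and -0.82 in shRPRD1B 2, against 0.00 in both for all tested genes. A displacement of at least 2-fold, upward in shRPRD1B 1 and downward in shRPRD1B 2, was found for 41 tested genes, or 0.202%. Among 11541 genes with a mean of at least 5 CPM, 10 genes, 0.0866%, had shRPRD1B 1 at least 2-fold above and shRPRD1B 2 at least 2-fold below the shCtrl mean. CHAC1 and DDIT4 were 2 of these 10, and in the other 8 the shCtrl libraries were themselves at least 2-fold apart, which left CHAC1 and DDIT4 alone, or 0.0173%. The reverse arrangement was found for 5 genes, or 0.0433%, and for 0 members. Because the members were chosen with the knockdown libraries viewed apart, nothing is read from these counts either. The library with less RPRD1B mRNA, shRPRD1B 1, was the one with more CHAC1 and DDIT4 mRNA. The mitochondrially encoded share was higher in shRPRD1B 2, and the part of either in this split was not tested.

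**Figure D3:**
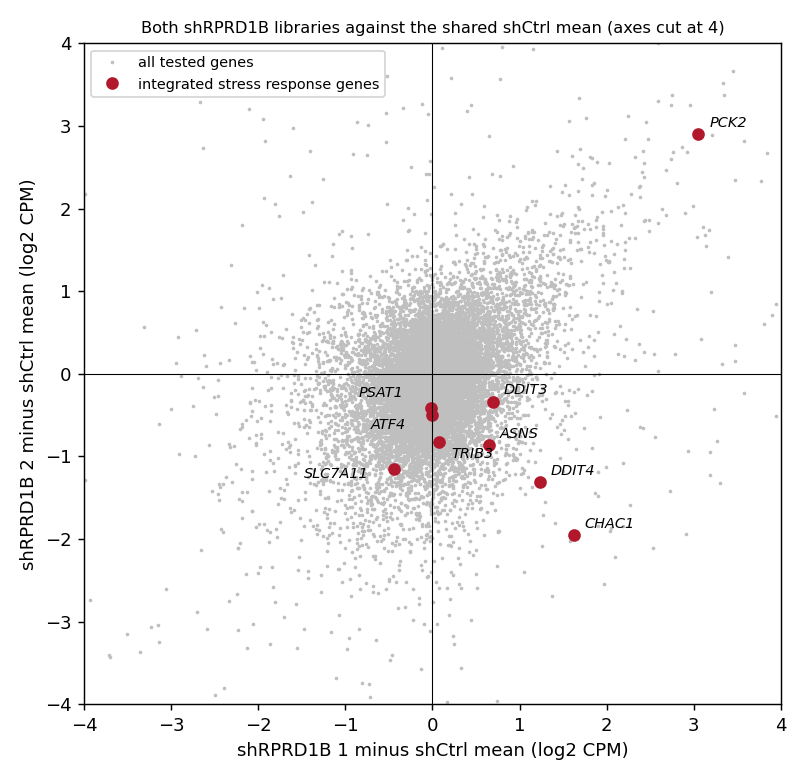
Log2 CPM minus the shCtrl mean in shRPRD1B 1 (horizontal axis) and in shRPRD1B 2 (vertical axis), with 1 grey point for each of 20319 tested genes and red points for the 9 tested members. Both axes share the same controls, and 41 genes lie outside the limits of 4. CHAC1, DDIT4, ASNS and DDIT3 lie at the lower right, higher in shRPRD1B 1 and lower in shRPRD1B 2. TRIB3 lies at the edge of that quadrant, at 0.08 in shRPRD1B 1, and PCK2 lies at the upper right.

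Fitted alone against the control pair, each knockdown library gave a different account of the members. For the members only effect sizes are given, because 1 library has no replicate and the members were chosen with these values known. With shRPRD1B 1 alone, the log2 fold changes were 3.09 for PCK2, 1.63 for CHAC1, 1.24 for DDIT4, 0.69 for DDIT3 and 0.66 for ASNS. They were 0.08 for TRIB3, -0.0009 for ATF4, -0.02 for PSAT1 and -0.44 for SLC7A11. With shRPRD1B 2 alone, PCK2 was again higher, at 2.94, and the other tested members were negative. Their log2 fold changes were -1.97 for CHAC1, -1.31 for DDIT4, -1.15 for SLC7A11 and -0.88 for ASNS. They were -0.82 for TRIB3, -0.49 for ATF4, -0.42 for PSAT1 and -0.34 for DDIT3. These fits assume that the lone library varies like the shCtrl pair, which was the tighter one, and they describe libraries rather than the knockdown. PCK2 was positive in both fits, and SLC7A11, ATF4 and PSAT1 were negative in both. CHAC1, DDIT4, ASNS, DDIT3 and TRIB3 had opposite signs.

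The rest of the pathway was read from 12 lists of other genes, 203 of whose 209 members were tested. Over all genes, edgeR called 0 of the 203, with 3 higher and 12 lower at an unadjusted p under 0.05, against 3.55% and 3.94% of all tested genes. Without shRPRD1B 1 edgeR called 101 of them, where it called 14.6% of all tested genes higher and 14.4% lower. Without shRPRD1B 2 it called 36, where it called 5.91% of all tested genes higher and 4.47% lower. Nothing about the pathway is read from these calls with 1 library left out. Of the 203 list genes, 195 had a mean of at least 5 CPM, against 11541 of the 20319 genes tested with all libraries. The list genes and all tested genes thus differ in level, and the list calls are not split by direction. DESeq2 called 2 of the 203, both lower, where it called 0.561% of all tested genes lower and 0.620% higher. Nothing about the pathway is read from so few. The 2 genes were BATF3, a partner of AP-1 factors, and ERO1A, an oxidase of the endoplasmic reticulum (ER) induced by DDIT3. ERO1A had 63.7 and 59.6 CPM in shRPRD1B 1 and 2, against 94.2 and 98.9 CPM in shCtrl 1 and 2 (log2 fold change -0.65 ± 0.11, adjusted p = 0.295 with edgeR and 0.00311 with DESeq2). Both knockdown libraries were alike and below the controls. BATF3 had 15.5 and 9.94 CPM in shRPRD1B 1 and 2, against 25.5 and 22.0 CPM in shCtrl 1 and 2 (-0.89 ± 0.24, adjusted p = 0.525 with edgeR and 0.0496 with DESeq2). The median over the 203 genes was -0.02.

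Upstream of ATF4, the 10 eIF2 kinases and their regulators had a median log2 fold change of 0.17, 8 of them positive and 0 called. Their median difference from the shCtrl mean was -0.00 in shRPRD1B 1 and 0.27 in shRPRD1B 2, so the shift of the median lay in shRPRD1B 2. Without that library the median fold change was -0.00. Single genes departed from the median. IMPACT lay 0.39 and 0.08 above the shCtrl mean in shRPRD1B 1 and 2, and DELE1 0.34 and 0.39. DELE1, which relays mitochondrial stress to the kinase HRI, had 75.0 and 77.7 CPM in shRPRD1B 1 and 2, against 60.1 and 58.5 CPM in shCtrl 1 and 2 (0.36 ± 0.11, adjusted p = 0.577 with edgeR). IMPACT, an inhibitor of the kinase GCN2, gave 0.25 ± 0.14 and EIF2AK3, the ER kinase PERK, 0.26 ± 0.19. The 16 tested genes of eIF2, its exchange factor eIF2B and its phosphatase had a median of -0.04, with 4 positive. PPP1R15A (GADD34), which directs the phosphatase to eIF2 and is itself a target of the response, had 27.4 and 25.6 CPM in shRPRD1B 1 and 2, against 36.8 and 34.8 CPM in shCtrl 1 and 2 (-0.43 ± 0.12, adjusted p = 0.57 with edgeR). The initiation factor gene EIF2D gave -0.38 ± 0.12 and EIF2B2, an eIF2B subunit, -0.21 ± 0.12. In both upstream lists, 0 genes were 2-fold apart between the knockdown libraries, against 2.77% of genes with a mean of at least 5 CPM. At that share few such genes would be met in lists of 10 and 16, so nothing is read from this count.

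The 17 tested bZIP partners and related factors had a median of -0.01, with 8 positive and 0 called. Besides BATF3, the list gave CEBPD, a C/EBP factor of stress and inflammation, at -0.51 ± 0.25, and ATF5, a relative of ATF4, at 0.41 ± 0.26. ATF5 stood at 14.9 and 25.2 CPM in shRPRD1B 1 and 2, against 14.9 and 15.2 CPM in shCtrl 1 and 2, so it was higher in shRPRD1B 2, the opposite order to CHAC1. The 12 tested paralogues and partners of the members had a median of 0.11, with 8 positive and 0 called. TRIB1, a relative of TRIB3, gave 0.32 ± 0.14, and SESN3, a relative of SESN2, had 64.6 and 70.1 CPM in shRPRD1B 1 and 2, against 54.2 and 62.7 CPM in shCtrl 1 and 2 (0.20 ± 0.13).

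Other ATF4 targets act in amino acid metabolism. The 16 genes of amino acid and one-carbon metabolism had a median fold change of -0.08 on the log2 scale, with 6 positive and 0 called, and their median difference from the shCtrl mean was 0.01 in shRPRD1B 1 and -0.32 in shRPRD1B 2. Of the 16, 12 were lower in shRPRD1B 2 than in shRPRD1B 1. ALDH1L2, a mitochondrial folate enzyme, had 24.8 and 18.9 CPM in shRPRD1B 1 and 2, against 32.4 and 37.4 CPM in shCtrl 1 and 2 (-0.67 ± 0.18, adjusted p = 0.508 with edgeR). PYCR1, an enzyme of proline synthesis, had 164 and 111 CPM in shRPRD1B 1 and 2, against 201 and 192 CPM in shCtrl 1 and 2 (-0.52 ± 0.19). CBS, which makes cystathionine from homocysteine, had 68.9 and 60.4 CPM in shRPRD1B 1 and 2, against 50.8 and 47.2 CPM in shCtrl 1 and 2 (0.40 ± 0.13), so both knockdown libraries lay above both controls. None of the 3 was called by edgeR or DESeq2.

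The 12 amino acid transporter genes had a median of -0.11, with 4 positive and 0 called, and 6 of them were lower in shRPRD1B 2 than in shRPRD1B 1. SLC7A1, the cationic amino acid transporter, gave 0.34 ± 0.14, SLC38A2, a carrier of small neutral amino acids, 0.28 ± 0.12, and SLC7A5, the large neutral amino acid transporter, -0.21 ± 0.11. The 21 cytosolic aminoacyl-tRNA synthetase and tRNA export genes had a median of -0.01, with 9 positive and 0 called. CARS1 gave -0.45 ± 0.18, YARS1 -0.21 ± 0.10 and WARS1 0.20 ± 0.11. The 22 tested targets in signalling, autophagy and death had a median of -0.10, with 9 positive and 0 called. In this list, besides ERO1A, GADD45B gave -0.48 ± 0.16 and RIT1 -0.34 ± 0.13, and 14 of the 22 were lower in shRPRD1B 2 than in shRPRD1B 1. That order held for 103 of the 203 genes of all lists, against 50.4% of all tested genes. It was least frequent among the eIF2 kinases and their regulators, at 2 of 10. It was found for 7 of 21 tRNA synthetase and export genes, 6 of 21 ER genes and 5 of 12 mitochondrial genes. The list of eIF2, eIF2B and phosphatase gave 9 of 16, the bZIP list 9 of 17 and the NRF2 list 11 of 20. The mTORC1 list gave 15 of 28, the paralogues and partners 9 of 12 and the metabolism list 12 of 16.

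**Figure D4:**
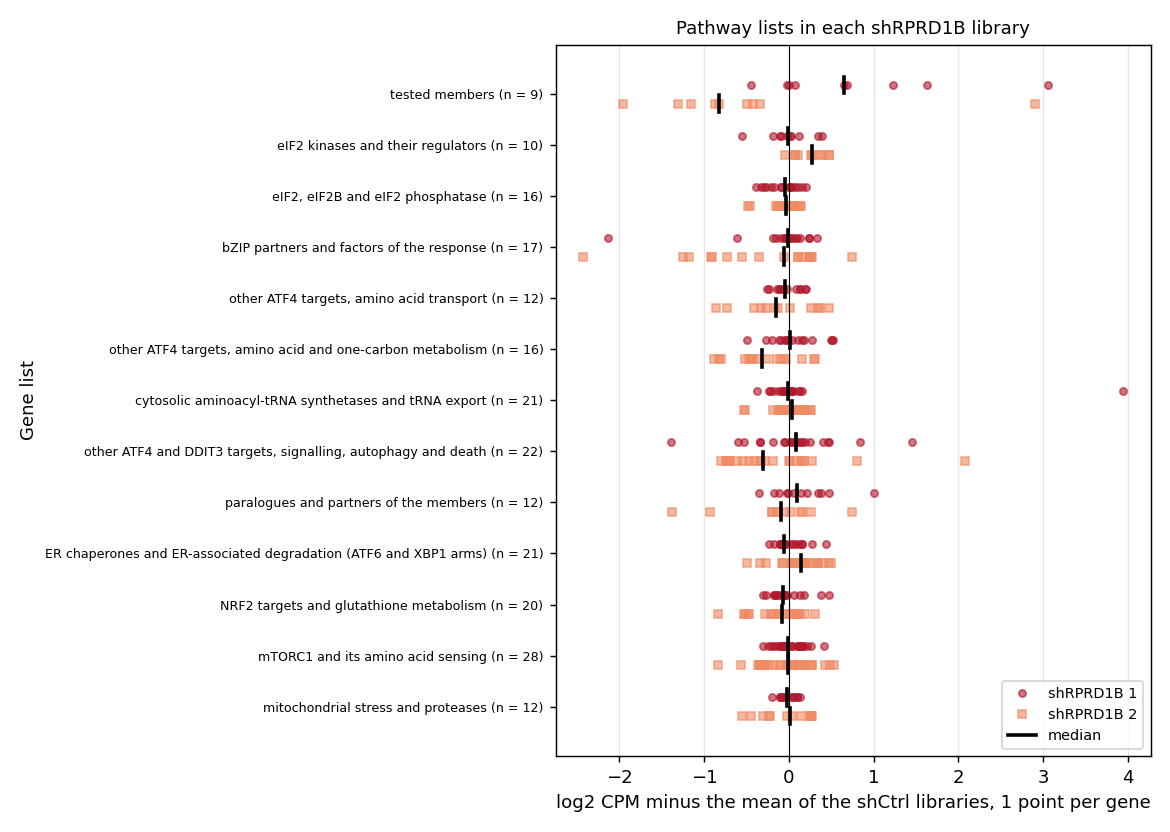
Log2 CPM minus the shCtrl mean for the 9 tested members (top) and for the genes of 12 pathway lists, with 1 circle per gene for shRPRD1B 1, 1 square per gene for shRPRD1B 2 and black bars for medians. The medians of the members lie at 0.65 and -0.82, while those of the lists lie between -0.06 and 0.10 in shRPRD1B 1 and between -0.32 and 0.27 in shRPRD1B 2.

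Lists from neighbouring stress programs followed. The 21 tested ER chaperone and ER-associated degradation genes, which answer to ATF6 and XBP1, had a median of 0.07, with 13 positive and 0 called. SDF2L1, an ER chaperone cofactor, had 126 and 105 CPM in shRPRD1B 1 and 2, against 153 and 142 CPM in shCtrl 1 and 2 (-0.36 ± 0.13), while HERPUD1 gave 0.32 ± 0.14 and the disulfide isomerase gene PDIA6 0.25 ± 0.12. The 20 NRF2 target and glutathione genes had a median of -0.05, with 7 positive and 0 called. GPX4, the glutathione peroxidase of membrane lipids, had 412 and 277 CPM in shRPRD1B 1 and 2, against 511 and 481 CPM in shCtrl 1 and 2 (-0.53 ± 0.20). The ferritin light chain gene FTL gave -0.29 ± 0.15 and HMOX1, heme oxygenase, 0.29 ± 0.16. The 28 genes of mTORC1 and its amino acid sensing, on which DDIT4 and SESN2 act, had a median of 0.01, with 14 positive and 0 called. MTOR gave 0.33 ± 0.14, RPTOR 0.30 ± 0.13 and WDR24, a subunit of GATOR2, -0.29 ± 0.12. The 12 tested mitochondrial stress and protease genes had a median of -0.04, with 5 positive and 0 called, among them LONP1 at -0.36 ± 0.15, YME1L1 at 0.20 ± 0.11 and HTRA2 at -0.18 ± 0.13.

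The split between the knockdown libraries was then sought in the same lists. shRPRD1B 1 was the highest and shRPRD1B 2 the lowest of the 4 libraries for 4 tested members (DDIT3, CHAC1, DDIT4 and ASNS). The same held for 35 of the 203 list genes, 17.2%, against 13.5% of all tested genes. At a mean of at least 5 CPM it held for 34 of 195 list genes, or 17.4%. The share over all genes of that level was not computed, so nothing is read from the difference. At least a 2-fold difference between the knockdown libraries was found for 8 of the 203, or 3.94%, against 9.99% of all tested genes. Many of those genes have low counts: at a mean of at least 5 CPM it was found for 6 of 195 list genes, or 3.08%, against 2.77% of such genes. The genes named next were chosen after their values were seen. CDKN1A, the cell cycle inhibitor p21, had 133 and 48.7 CPM in shRPRD1B 1 and 2, against 78.4 and 71.0 CPM in shCtrl 1 and 2. ASS1, which makes argininosuccinate, had 78.7 and 31.5 CPM in shRPRD1B 1 and 2, against 59.4 and 50.4 CPM in shCtrl 1 and 2. STC2, a secreted glycoprotein, had 140 and 63.5 CPM in shRPRD1B 1 and 2, against 103 and 109 CPM in shCtrl 1 and 2, and JDP2, a bZIP repressor, had 13.9 and 4.85 CPM in shRPRD1B 1 and 2, against 11.1 and 10.9 CPM in shCtrl 1 and 2. These 4 had the order of CHAC1 and DDIT4 with smaller displacements. Of the transcription factors that pair with ATF4 or follow it, CEBPB had 83.7 and 42.6 CPM in shRPRD1B 1 and 2. Its levels in shCtrl 1 and 2 were 73.9 and 67.8 CPM. ATF3 had 40.0 and 23.0 CPM in shRPRD1B 1 and 2, against 32.9 and 34.7 CPM in shCtrl 1 and 2. Others of their list lacked this order. CEBPG had 74.4 and 69.7 CPM in shRPRD1B 1 and 2, against 69.0 and 75.6 CPM in shCtrl 1 and 2. CEBPA and CEBPD were lowest in shRPRD1B 2 but not highest in shRPRD1B 1, and ATF5 had the opposite order. Of the 17 tested genes of the list, 4 had shRPRD1B 1 highest and shRPRD1B 2 lowest.

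Genes with a course over the 4 libraries most like that of ATF4 were found by the Euclidean distance of log2 CPM centred on each gene's mean, among 10676 other protein-coding genes of at least 5 CPM. The nearest were NOP10, a small nucleolar ribonucleoprotein component, at a distance of 0.011, MLF1 at 0.011 and BOC, a cell surface receptor, at 0.017. NOP10 had 108 and 76.7 CPM in shRPRD1B 1 and 2, against 109 and 106 CPM in shCtrl 1 and 2. Over 4 libraries such likeness says little, as 212 of the 10676 genes lay within a distance of 0.1. Of the members, PSAT1 lay within it at 0.072. TRIB3 followed at 0.34 and SLC7A11 at 0.57, at ranks 2628 and 6405 among the 10676 genes, so by this distance neither was near ATF4. CHAC1 stood at 2.19 and PCK2 at 3.25. The distance weighs the size of a change as well as its order over the libraries. TRIB3 had the order of ATF4, with shRPRD1B 1 between the controls, but a larger drop in shRPRD1B 2. Its level there was 0.564 times the shCtrl mean, against 0.711 times for ATF4.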

How the data were processed

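Poly(A) RNA libraries of HEK293T cells, 2 with shRPRD1B and 2 with shCtrl, were analysed from the deposited files, each a file of raw read counts by gene identifier for a single library. Per the submitters' processing notes, the authors used Trim Galore, HISAT2, featureCounts and hg38. Versions, annotation release, strand setting and treatment of multi-mapped reads are not stated there. Of 69222 identifiers, 62686 matched a symbol. Members and gene lists were chosen with earlier results of these data known. Genes passing filterByExpr (minimum count 10; 20319 genes) were fitted with edgeR 4.0.16 (R 4.3.3), quasi-likelihood with robust estimation, TMM factors and the group as the only term. Benjamini-Hochberg adjustment ran over all tested genes, with 0.05 as the threshold. SEs and 95% intervals come from that fit. CPM values use TMM-scaled library sizes, and log2 CPM a prior count of 2. Levels per kb use the longest principal transcript of GENCODE. Coordinates and promoter windows are from RefSeq (GRCh38.p14). List genes named were the 3 with the smallest p in each list at a mean of at least 5 CPM, and exceptions are stated. Libraries of a group differed by more than sampling noise (chi-square per gene 59.6 for shRPRD1B and 6.12 for shCtrl), so no file repeats another; this does not show that they were separate cultures. Alternatives used other factors, filters and tools (DESeq2 1.42.0, limma voom 3.58.1), the replicate number as a block and 1 library left out.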

Additional observations from a re-analysis of the deposited data

How the results depend on the processing

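The number of genes called higher and lower in shRPRD1B over all genes was 6 and 8. It was 126 and 114 with DESeq2, 0 and 0 with limma voom (1449 genes at an unadjusted p under 0.05), 23 and 17 with no low-count filter, 0 and 0 with at least 5 CPM in 2 libraries (876 genes at an unadjusted p under 0.05), and 4 and 3 with edgeR's older quasi-likelihood fit, which was added after seeing the data. With 1 library left out it ranged from 12 to 3139 higher and from 36 to 3096 lower, the largest counts being those without shRPRD1B 1. Called genes of the pathway lists numbered 0. They were 2 with DESeq2, BATF3 and ERO1A, and ranged from 0 to 101 with 1 library left out. The median of the 9 tested members, 0.11, was -0.08 with limma voom, 0.66 without shRPRD1B 2 and -0.82 without shRPRD1B 1. Shared replicate numbers were not taken to pair the libraries. The deviations of same-numbered libraries correlated at 0.15 over genes of at least 5 CPM. With the replicate block, 85 genes were called higher and 56 lower, and the members' median was -0.03. PCK2 passed the threshold there too (adjusted p = 0.000668 with edgeR), given as a description only. The 1 list gene called was VARS1, whose libraries lay far apart within both groups. Scaling moved the median of all genes by at most 0.025. Low counts limit SESN2, and ASNS and PCK2 rest on at most 320 and 512 counts in a library.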

Other observations

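Among the other pathway genes, VARS1 and SQSTM1 had the widest gaps between the knockdown libraries, and their control libraries were also far apart. VARS1, the valyl-tRNA synthetase gene, had 28.6 and 1.26 CPM in shRPRD1B 1 and 2, against 6.18 and 0.514 CPM in shCtrl 1 and 2. SQSTM1, the autophagy receptor p62, had the opposite order, with 1.85 and 20.8 CPM in shRPRD1B 1 and 2, against 13.1 and 1.81 CPM in shCtrl 1 and 2. Of the genes that shared the 2-fold opposite displacement of CHAC1 and DDIT4, LY6E had 53.6 and 2.12 CPM in shRPRD1B 1 and 2, against 2.93 and 28.8 CPM in shCtrl 1 and 2, and NDUFS1 had 50.9 and 3.06 CPM in shRPRD1B 1 and 2, against 5.30 and 23.2 CPM in shCtrl 1 and 2. NUPR1, a small stress-induced factor downstream of ATF4, had 2 and 1 counts in shRPRD1B 1 and 2, against 12 and 13 counts in shCtrl 1 and 2. These genes were chosen after their values were seen.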
